A study of Mus musculus with 9 samples.

Results

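The 10 genes followed here belong to the cytosolic heat shock response and were measured in 4T1 mouse breast cancer cells given MRC nanoparticles, with or without red light. They are the inducible HSP70 genes Hspa1a and Hspa1b, the constitutive HSP70 gene Hspa8, the HSP110 gene Hsph1, the J-domain genes Dnajb1 and Dnaja4, Hsp90aa1, Bag3, Hspb1 and Hsf1. The members were chosen by name as well-known genes of this response, and all 10 were found among the 55416 genes of the deposited tables. Heat shock proteins are chaperones: HSP70 binds unfolded stretches of other proteins, J-domain proteins bring it clients and start its ATPase, HSP110 and BAG proteins release its nucleotide, and HSP90 takes over selected clients. When unfolded protein accumulates, the transcription factor HSF1 is freed from chaperones, forms trimers and binds heat shock elements, arrays of inverted nGAAn units, upstream of these genes. Tumour cells often hold HSP70 and HSP90 at raised levels.

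The series, whose title names photodynamic particles and pyroptosis, holds 9 RNA-seq libraries of 4T1, an established line of BALB/c origin, in 3 groups of 3. The PBS group is labelled untreated and received fresh DMEM, the MRC group received MRC nanoparticles for 12 hours, and the MRC+L group received the particles for 12 hours and a 660 nm laser for 3 min at 180 mW/cm2, as the sample characteristics give it. Cells given light without particles were not analysed here, so light alone and light on particle-treated cells cannot be told apart. The labels do not say whether the libraries of a group came from separate cultures, so p-values measure only the spread between these libraries. In bulk RNA, a change in every cell and a change in a fraction of the cells cannot be told apart either.

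Library totals ran from 15019765 to 20044166 assigned counts, so that 3 counts, the limit that a count of 0 allows, equal 0.1497 to 0.1997 CPM (counts per 1000000); this limit covers counting error only. Levels below are CPM on TMM-scaled library sizes. PBS replicate 2 stood apart before any comparison: the shortest 10% of its genes lay 1.09 log2 units higher than the longest 10% relative to the mean of all libraries, against -0.312 to 0.118 in the other 8. The biological coefficient of variation over genes was 0.280 in the PBS group, 0.116 without that library, 0.0806 in the MRC group and 0.0578 in the MRC+L group. The keratins Krt8 (306 to 905 CPM) and Krt18 (169.5 to 823 CPM) were high in all libraries, while the epithelial adhesion genes Epcam (0 to 5 counts) and Cldn7 (0 to 6 counts) were almost absent. Of the markers of other cells, the leukocyte genes Cd3e and Adgre1 had no count, Ptprc 0 to 3 counts, and the fibroblast genes Dcn and Lum 0 to 1 count. Other genes of these lists were counted: Pdgfra 504 to 1537 and Pdgfrb 69 to 379 counts among the fibroblast genes, and Cdh5 51 to 138 counts among the endothelial genes. The summed leukocyte list, carried by Cd68, was nevertheless 7.16 to 11.8 CPM in PBS, 17.0 to 22.8 CPM in MRC and 18.5 to 20.04 CPM in MRC+L libraries. The epithelial list summed to 974 to 1735, 543 to 577 and 484 to 502 CPM in the same order, and the fibroblast list to 43.2 to 78.4, 75.5 to 93.3 and 73.8 to 83.8 CPM. The endothelial list summed to 3.35 to 7.42, 4.54 to 5.70 and 4.08 to 5.29 CPM. The part of these lists in the results was not tested.

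Particles alone raised 8 of the 10 heat shock genes over untreated cells, and cells that also received light showed 9 of 10 raised over untreated cells and 8 of 10 raised over particles without light. Over all genes tested, 37.6%, 46.2% and 5.05% were called in these 3 comparisons. Hspa1b, the inducible HSP70 copy with more assigned counts, went from 20.8 ± 12.3 CPM (SD, n = 3) in PBS to 193 ± 21.2 CPM in MRC and 1008 ± 244 CPM in MRC+L cells. None of the 10 was called lower in any comparison. A call means an adjusted p under 0.05 in edgeR's quasi-likelihood test with Benjamini-Hochberg adjustment over all genes tested. Called higher were 17.8% of the 13439 genes tested for MRC against PBS, 21.8% for MRC+L against PBS and 3.13% of the 12955 tested for MRC+L against MRC. The median log2 fold change of the 10 genes was 1.05, 1.67 and 0.71 in these comparisons, beside -0.03, -0.03 and -0.01 over all genes tested. The comparisons share libraries and are therefore not independent of each other.

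**Figure D1:**
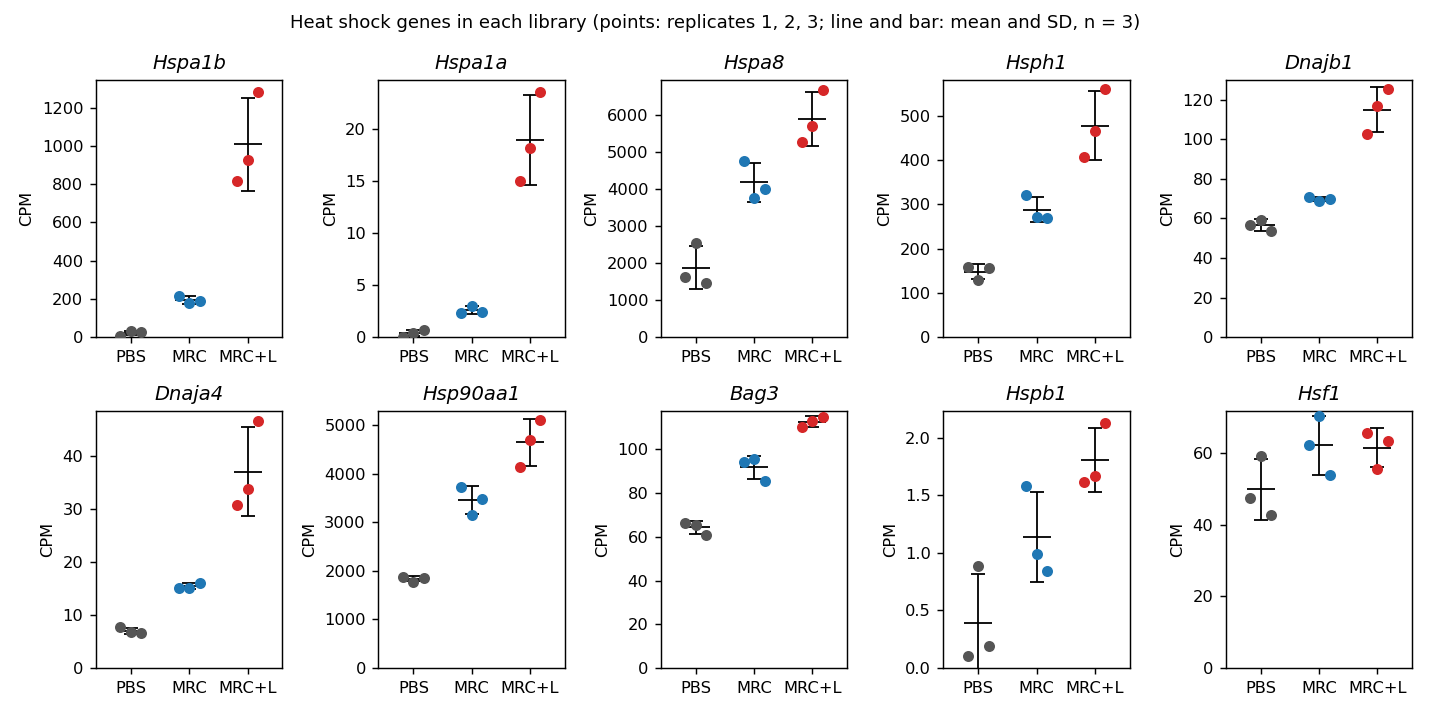
Expression of the 10 genes in CPM (vertical axes, one scale per panel) in each of the 9 libraries (points), with the mean and SD of each group (bars). In MRC+L libraries 9 genes lie wholly above both other groups; the Hsf1 points overlap.

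Hspa1a and Hspa1b encode the stress-inducible HSP70 proteins and lie next to each other in the major histocompatibility region. On GRCm39, the build of the deposited counts, Hspa1a (ENSMUSG00000091971) is at chr17:35188166-35191132 and Hspa1b (ENSMUSG00000090877) at chr17:35175412-35178214, each annotated as a single exon on the minus strand. The copies are so alike that their reads are hard to assign: their transcripts in the GENCODE M21 set are identical at 2514 of 2771 aligned bases (90.7%), and 47.1% of the 100-base words of Hspa1a and 49.9% of those of Hspa1b occur in the other. Hspa1a also shares 564 exon bases with Gm20481 on the opposite strand, and the counting is not stated to use strand. The single-gene values are therefore uncertain in how they split, and the sum of both is given beside them.

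The upstream sequences of the pair show how alike the copies are before their starts, and are printed from RefSeq (GRCm38.p6) for the 250 bases before each start, 5′ to 3′ on the gene's strand. Capitals mark the only match to GAANNTTC, a pair of inverted GAA units, at the same distance from the start in both copies.
Hspa1a, chr17:34972157-34972406, minus strand: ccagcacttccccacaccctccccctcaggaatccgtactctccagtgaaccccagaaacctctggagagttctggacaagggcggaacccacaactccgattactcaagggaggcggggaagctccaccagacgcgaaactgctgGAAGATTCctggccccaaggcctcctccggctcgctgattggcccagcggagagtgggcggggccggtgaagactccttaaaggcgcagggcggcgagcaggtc
Hspa1b, chr17:34959239-34959488, minus strand: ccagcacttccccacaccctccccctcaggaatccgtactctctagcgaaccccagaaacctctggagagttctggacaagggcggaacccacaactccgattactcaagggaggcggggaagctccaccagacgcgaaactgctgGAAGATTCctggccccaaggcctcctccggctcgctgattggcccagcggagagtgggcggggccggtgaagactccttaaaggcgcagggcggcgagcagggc
Counted from 1 at the 5′ end, with the Hspa1a base first, the 250 bases differ at 3 positions: C44T, T47C and T249G.

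Hspa1b had 6.69, 29.4 and 26.3 CPM in PBS replicates 1, 2 and 3, 217, 176 and 187 CPM in the MRC replicates, and 814, 927 and 1282 CPM in the MRC+L replicates. The 3 groups were fully separate, and PBS replicate 1 was the low library among the untreated. The rise over PBS was 9.31-fold in MRC (log2 3.22 ± 0.445 SE, edgeR adjusted p = 0.000381) and 48.6-fold in MRC+L cells (log2 5.60 ± 0.493, adjusted p = 1.90e-05). These folds depend on the PBS libraries. Without PBS replicate 1 the log2 values were 2.79 and 5.17, and without PBS replicate 2 they were 3.57 and 5.96. MRC+L cells were 5.23-fold above MRC cells (log2 2.39 ± 0.113, edgeR adjusted p = 2.14e-12), and Hspa1b had rank 1 by p among the 12955 genes of that fit.

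Hspa1a was counted far less often: 1, 7 and 11 reads in the PBS libraries, 37, 52 and 48 in the MRC libraries, and 277, 272 and 398 in the MRC+L libraries. In CPM these are 0.0522, 0.412 and 0.685, then 2.34, 3.03 and 2.38, then 14.96, 18.2 and 23.5. As with Hspa1b, the groups did not overlap, although the count of 1 read in PBS replicate 1 lies under the limit of 3 counts. Hspa1a rose 6.91-fold with particles (log2 2.79 ± 0.476, edgeR adjusted p = 0.00135) and 50.4-fold with particles and light (log2 5.66 ± 0.437, adjusted p = 8.23e-06). These folds rest on the low PBS counts: without PBS replicate 1 the log2 values were 2.23 and 5.09, and without PBS replicate 3 they were 3.49 and 6.36. Between the particle groups, where no library was near that limit, Hspa1a rose 7.32-fold (log2 2.87 ± 0.184, edgeR adjusted p = 6.88e-10), rank 1 by fold among the 406 genes called higher and rank 2 by p.

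The sum of Hspa1a and Hspa1b does not depend on how reads were split between the copies. It cannot restore reads common to both copies if the counting left them out. It took 0.000679, 0.00289 and 0.00276% of all counts in the PBS libraries, 0.0217, 0.0181 and 0.0190% in the MRC libraries and 0.0833, 0.0940 and 0.129% in the MRC+L libraries. Every step between groups was without overlap; an exact two-sided permutation test of each pair of groups gave p = 0.1, the smallest that 3 libraries against 3 allow. In edgeR's quasi-likelihood test the sum was 9.26-fold higher in MRC than in PBS (log2 3.21 ± 0.447, adjusted p = 0.000398), 48.6-fold higher in MRC+L than in PBS (log2 5.60 ± 0.496, adjusted p = 1.97e-05) and 5.26-fold higher in MRC+L than in MRC (log2 2.40 ± 0.113, adjusted p = 1.86e-12). Hspa1a contributed 0.775 to 2.53% of the summed counts over the 9 libraries. That share was 1.07 to 1.69% in MRC and 1.80 to 1.93% in MRC+L libraries, and the PBS libraries overlapped both ranges.

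Hspa8 (ENSMUSG00000015656, chr9:40712280-40721383) encodes HSC70, the constitutive HSP70 of the cytosol, and was already abundant in untreated cells. Its PBS libraries had 1623, 2541 and 1457 CPM, the MRC libraries 4756, 3765 and 4004 CPM, and the MRC+L libraries 5255, 5697 and 6680 CPM. No group overlapped another, and PBS replicate 2 was the high library of its group. Hspa8 rose 2.23-fold with particles (log2 1.16 ± 0.209, edgeR adjusted p = 0.00184) and 3.14-fold with particles and light (log2 1.65 ± 0.211, adjusted p = 0.000184). The step from MRC to MRC+L was 1.41-fold (log2 0.50 ± 0.0841, edgeR adjusted p = 0.00152). Exons of Hspa8 share 86, 86 and 90 bases with 3 gene entries without a symbol on the same strand, a small part of its 4301 exon bases.

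Hsph1 (ENSMUSG00000029657, chr5:149537752-149559841) encodes HSP105, a nucleotide exchange factor for HSP70 that also holds unfolded protein. It had 158, 129 and 157 CPM in the PBS libraries, 322, 272 and 270.1 CPM in the MRC libraries, and 406, 467 and 560.0 CPM in the MRC+L libraries. Here too the 3 groups were separate. Hsph1 rose 1.94-fold over PBS with particles (log2 0.96 ± 0.146, edgeR adjusted p = 0.000679), 3.23-fold with particles and light (log2 1.69 ± 0.149, adjusted p = 1.89e-05), and 1.66-fold from MRC to MRC+L (log2 0.73 ± 0.0878, adjusted p = 3.03e-05). Its promoter window holds, just after the start, the one 3-unit element found among the members, TTCNNGAA followed by NNTTC, shown in capitals because it is the longest match to a heat shock element here:
Hsph1, chr5:149636280-149636308 of GRCm38.p6, minus strand: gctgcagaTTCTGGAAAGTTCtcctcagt
This 3-unit motif, read on the gene's strand only, occurs in 0.320% of the 32851 RefSeq promoter windows. Its reverse complement, GAANNTTC followed by NNGAA, occurs in 0.310% of them.

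Dnaja4 and Dnajb1 encode J-domain partners of HSP70; DNAJB1, also called HSP40, is the classic partner of inducible HSP70 in refolding. Dnaja4 (ENSMUSG00000032285, chr9:54606157-54623599) had 7.68, 6.70 and 6.60 CPM in PBS, 15.1, 15.02 and 16.1 CPM in MRC, and 30.8, 33.8 and 46.6 CPM in MRC+L libraries. These are 3 separate levels, close together within PBS and MRC and wider in MRC+L, where replicate 3 was highest. Dnaja4 rose 2.20-fold with particles (log2 1.14 ± 0.168, edgeR adjusted p = 0.000575), 5.29-fold with particles and light (log2 2.40 ± 0.170, adjusted p = 4.65e-06) and 2.41-fold between the particle groups (log2 1.27 ± 0.123, adjusted p = 1.48e-06). Of its 3589 exon bases, 1581 also lie in exons of Wdr61 on the opposite strand, and strand use is not stated. Reads from these bases may be missing from the Dnaja4 counts or may be those of Wdr61, which was not checked. The pair of GAANNTTC matches before the Dnaja4 start, a number that only 0.344% of windows reach, are shown in capitals:
Dnaja4 distal, chr9:54699458-54699487 of GRCm38.p6, plus strand: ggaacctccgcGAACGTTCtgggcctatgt
Dnaja4 proximal, chr9:54699496-54699525 of GRCm38.p6, plus strand: gcctcctggcgGAACCTTCcgccggcgccg

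Dnajb1 (ENSMUSG00000005483, chr8:84334822-84339282) was called higher in all 3 comparisons, narrowly so in the first. The PBS libraries had 56.8, 59.5 and 53.8 CPM, the MRC libraries 70.9, 68.9 and 69.8 CPM, and the MRC+L libraries 103, 117 and 126 CPM. No libraries overlapped between groups. The 1.23-fold rise in MRC (log2 0.30 ± 0.102, edgeR adjusted p = 0.0398) was lost in 10 of 15 alternative settings, with adjusted p up to 0.126. Dnajb1 in MRC+L cells was 2.03-fold above PBS (log2 1.02 ± 0.102, edgeR adjusted p = 3.95e-05) and 1.65-fold above MRC (log2 0.72 ± 0.0733, adjusted p = 2.28e-06), rank 6 by p in the latter comparison. Whether the 2 steps of Dnajb1 differ in size was not tested.

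Hsp90aa1 (ENSMUSG00000021270, chr12:110657039-110669162) encodes the inducible cytosolic HSP90, which matures kinases and receptors. It had 1879, 1775 and 1842 CPM in PBS, 3733, 3143 and 3485 CPM in MRC, and 4136, 4681 and 5106 CPM in MRC+L libraries. All 3 groups were separate and the untreated libraries lay close together, PBS replicate 2 included. Hsp90aa1 rose 1.89-fold with particles (log2 0.91 ± 0.121, edgeR adjusted p = 0.000296), 2.53-fold with particles and light (log2 1.34 ± 0.122, adjusted p = 2.30e-05) and 1.35-fold between the particle groups (log2 0.43 ± 0.0758, adjusted p = 0.00227).

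Bag3 (ENSMUSG00000030847, chr7:128125340-128148705) encodes a cochaperone that links HSP70 to small heat shock proteins and to selective autophagy. Its values were 66.4, 65.4 and 61.1 CPM in PBS, 94.2, 95.5 and 85.6 CPM in MRC, and 110.1, 113 and 114.9 CPM in MRC+L libraries. The levels were tight within groups and did not overlap between them. Bag3 rose 1.43-fold with particles (log2 0.51 ± 0.0916, edgeR adjusted p = 0.00174) and 1.75-fold with particles and light (log2 0.81 ± 0.0918, adjusted p = 8.67e-05). Its step with light was the smallest of those called, 1.23-fold (log2 0.30 ± 0.0664, edgeR adjusted p = 0.0111), and passed no longer without MRC replicate 3 (adjusted p = 0.0765), MRC+L replicate 2 (0.0792) or MRC+L replicate 3 (0.0518).

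Hspb1 (ENSMUSG00000004951, chr5:135916773-135918417), the gene of the small heat shock protein HSP27 (HSP25 in mouse), was near the limit of detection. It had 2, 15 and 3 reads in PBS, 25, 17 and 17 in MRC, and 30, 25 and 36 in MRC+L libraries, or 0.104, 0.882 and 0.187, then 1.58, 0.990 and 0.843, then 1.62, 1.67 and 2.13 CPM. PBS replicate 2, the library that stands apart, overlapped the MRC group, while MRC+L lay above both other groups. Hspb1 in MRC+L was 4.61-fold above PBS (log2 2.21 ± 0.597, edgeR adjusted p = 0.0129; log2 3.60 without PBS replicate 2). The MRC and PBS levels did not pass the test (log2 1.53 ± 0.615, 95% confidence interval 0.16 to 2.90, edgeR adjusted p = 0.0746), though they did without PBS replicate 2 (log2 2.91, adjusted p = 0.000609). Hspb1 also passed there with DESeq2 (adjusted p = 0.0337), and in edgeR without a count filter (0.0170) and with the length trend removed (0.0319). The step from MRC to MRC+L did not pass either (log2 0.69 ± 0.348, interval -0.03 to 1.41, edgeR adjusted p = 0.265). Its upstream bases are shown because this little-counted gene carries a pair of GAANNTTC matches, in capitals at -117 and -97 from the start:
Hspb1, chr5:135887669-135887918 of GRCm38.p6, plus strand: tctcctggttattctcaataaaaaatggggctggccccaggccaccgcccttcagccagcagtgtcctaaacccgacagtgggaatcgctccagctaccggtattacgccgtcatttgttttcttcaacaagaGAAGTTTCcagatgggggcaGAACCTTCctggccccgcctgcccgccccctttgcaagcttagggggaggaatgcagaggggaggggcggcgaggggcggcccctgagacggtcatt

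Hsf1 (ENSMUSG00000022556, chr15:76361622-76386113) encodes the transcription factor of the response, whose activity is set mainly on the protein. It had 47.5, 59.2 and 42.8 CPM in PBS, 62.3, 70.3 and 53.8 CPM in MRC, and 65.7, 55.4 and 63.4 CPM in MRC+L libraries. Its groups overlapped in every comparison. The Hsf1 log2 fold change was 0.32 ± 0.148 for MRC against PBS (95% interval -0.01 to 0.65, edgeR adjusted p = 0.116), 0.30 ± 0.148 for MRC+L against PBS (-0.03 to 0.63, adjusted p = 0.117) and -0.01 ± 0.089 for MRC+L against MRC (-0.19 to 0.18, adjusted p = 0.973). Without PBS replicate 2 both comparisons with PBS passed the test, at log2 0.45 (edgeR adjusted p = 0.0019) and 0.44 (adjusted p = 0.00189).

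**Figure D2:**
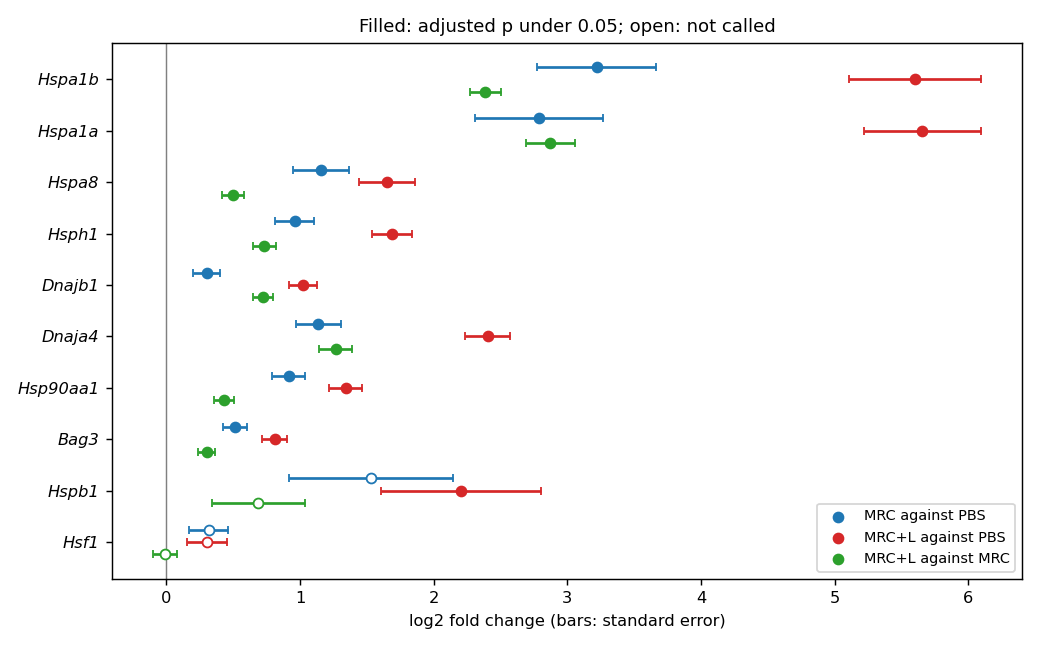
Log2 fold change with its standard error (horizontal axis) of each gene in the 3 comparisons. Filled points have an adjusted p under 0.05. Hspa1a and Hspa1b lie farthest to the right in each comparison, and Hsf1 is open in all 3.

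Across the set, 8 of 10 genes had all MRC libraries above all PBS libraries, beside 24.1% of all genes tested. The count was 9 of 10 for MRC+L against PBS, beside 28.2%, and 9 of 10 for MRC+L against MRC, beside 12.0%. Within the MRC+L group, replicate 3 was the highest library and replicate 1 the lowest for 9 of the 10 genes, Hsf1 being highest in replicate 1 and lowest in replicate 2. The 10 genes together took 0.388, 0.452 and 0.372% of counts in PBS, 0.916, 0.769 and 0.822% in MRC, and 1.10, 1.20 and 1.39% in MRC+L libraries, a share higher in every particle-treated library than in any PBS library.

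The light comparison depends on which libraries set the spread. It was fitted on the 6 particle-treated libraries, where 654 genes were called (406 higher, 248 lower). When the 3 PBS libraries, with their wider spread, entered the same edgeR fit, no gene was called (573 had an unadjusted p under 0.05), and none of the 10 either: the adjusted p was 0.0882 for Hspa1a and Dnaja4, 0.108 for Dnajb1, 0.406 for Hspa1b and 0.622 for Hsph1. DESeq2 on the 9 libraries, an alternative chosen after seeing the data, called 22 genes, and Hspa1a, Hspa1b, Hsph1, Dnajb1 and Dnaja4 were among them (adjusted p = 3.02e-18, 1.46e-05, 0.00298, 1.14e-08 and 1.14e-08). The 654 calls became 1015 without MRC replicate 2, 193 without MRC replicate 3, and 382, 137 and 297 without MRC+L replicates 1, 2 and 3, while 7 or 8 of the 10 genes stayed called. Removing a trend with gene length turned the split of calls to 205 higher and 283 lower, with 8 of the 10 genes still called higher.

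Levels of different genes were compared per length, in RPKM (CPM per kilobase of exon). In PBS cells Hsp90aa1 and Hspa8 led with mean levels of 466 and 436 RPKM, and their libraries overlapped. Bag3 (25.1 RPKM), Hsph1 (20.4) and Dnajb1 (17.7) followed, the latter pair overlapping. Below them came Hspa1b (7.42 RPKM) and Hsf1 (7.02), which overlapped, then Dnaja4 (1.95), and at the bottom Hspb1 (0.379) and Hspa1a (0.129), again overlapping. As counted, untreated 4T1 cells thus held the constitutive HSP70 message far above the inducible one, with an Hspa8 to Hspa1b ratio of 58.7. Hspa1a and Hspa1b levels per length are uncertain in how reads common to both copies were assigned and in whether they were counted. Their sum in PBS was 7.55 RPKM.

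In MRC cells Hspa1b had moved to the third place at 68.9 RPKM, behind Hspa8 (971) and Hsp90aa1 (879), whose libraries overlapped, and ahead of Hsph1 (39.6) and Bag3 (35.8), which overlapped too. Dnajb1 (21.8 RPKM), Hsf1 (8.75) and Dnaja4 (4.29) followed without overlap, and Hspb1 (1.10) and Hspa1a (0.871) overlapped at the bottom. In MRC+L cells it stood at 360 RPKM, still below Hspa8 (1367 RPKM) and Hsp90aa1 (1181 RPKM) and well above Hsph1 (65.7 RPKM), Bag3 (43.99 RPKM) and Dnajb1 (35.9 RPKM). The Hspa8 to Hspa1b ratio was 14.1 in MRC and 3.80 in MRC+L cells, with the same uncertainty in the Hspa1b reads. Dnaja4 (10.3 RPKM), Hsf1 (8.67 RPKM) and Hspa1a (6.37 RPKM) were neighbours whose MRC+L libraries overlapped, and Hspb1 was last at 1.75 RPKM.

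**Figure D3:**
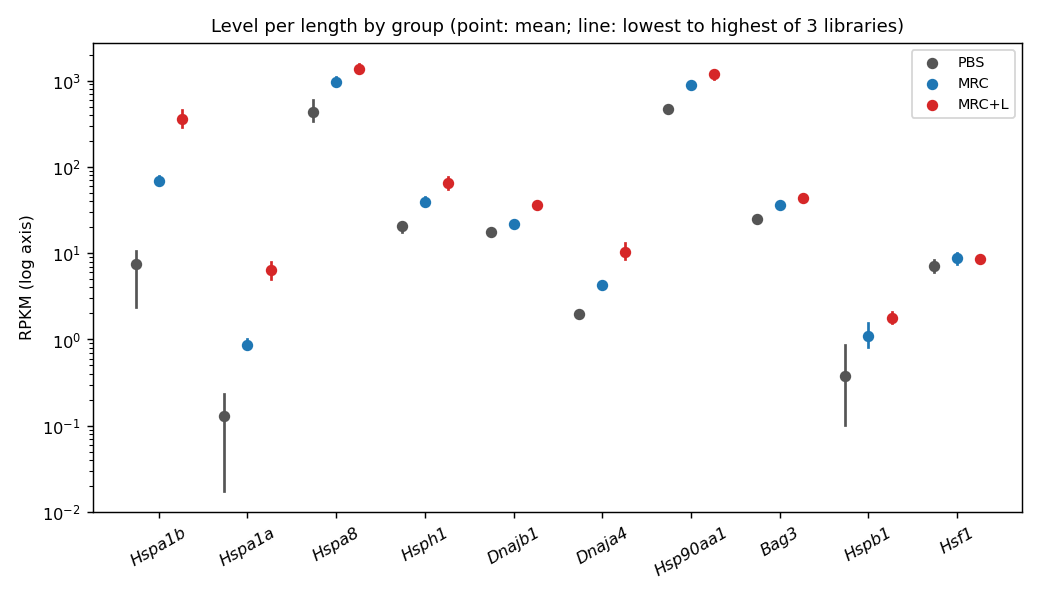
Mean level per length of each gene (RPKM, logarithmic axis) in the 3 groups, with bars from the lowest to the highest library. Hspa8 and Hsp90aa1 are on top in all groups, and Hspa1b climbs from 7.42 through 68.9 to 360 RPKM.

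Promoter windows, from 250 bases before to 50 after the start in the RefSeq table of GRCm38.p6, were matched for 7 of the 10 genes: Hspa1a, Hspa1b, Hsph1, Dnajb1, Dnaja4, Bag3 and Hspb1. The 8-letter motif GAANNTTC, which reads the same on both strands, was found in 6 of these 7 genes. Among all 27025 genes with a window it was found in 9.04%, and in 7.86% of all windows. In Bag3 it lies 43 bases after the start, and Dnajb1 had no match to any motif searched. TTCNNGAA, also its own reverse complement, was found in Hsph1 alone of the 7, in 9.60% of all genes and in 8.52% of windows. The 3-unit form GAANNTTC followed by NNGAA, the reverse complement of the Hsph1 element, was found in none of the 7. It was found in 0.344% of all genes and 0.310% of windows. A match describes these letters only, and no binding of HSF1 was measured.

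The other genes of the cytosolic chaperone system were described by 6 lists. Of their 49 genes, 42 were tested against PBS: 12 were called higher and 4 lower in MRC, 12 higher and 8 lower in MRC+L, and the median log2 change was 0.16 and 0.21. For MRC+L against MRC, 41 were tested and Dnaja1 alone was called higher and Cdc37 alone lower, with a median of -0.01. Over all genes the share called higher was 17.8%, 21.8% and 3.13% in the 3 comparisons. The share called lower was 19.8%, 24.5% and 1.91%.

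Of the J-domain genes, 5 of 8 were called higher in each comparison with PBS, beside 17.8% and 21.8% of all genes, and none was called lower. Dnajb2, which passes ubiquitinated clients to the proteasome, was 1.70-fold higher in MRC (log2 0.76 ± 0.114, edgeR adjusted p = 0.000628) and 1.75-fold in MRC+L cells (log2 0.81 ± 0.115, adjusted p = 0.000349). Dnaja2, a refolding partner of HSC70, was 1.44-fold higher in MRC (log2 0.52 ± 0.108, adjusted p = 0.00396). Dnaja1, its close relative, was 1.52-fold higher in MRC (log2 0.60 ± 0.152, edgeR adjusted p = 0.011) and 1.87-fold higher in MRC+L than in PBS (log2 0.90 ± 0.153, adjusted p = 0.00102). Between the particle groups Dnaja1 was 1.23-fold higher in MRC+L (log2 0.30 ± 0.0807, edgeR adjusted p = 0.0321), a call lost in 7 of 13 alternatives.

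Among 7 HSP70 relatives, the HSP110 gene Hspa4l was the one called higher in both, 2.15-fold in MRC (log2 1.11 ± 0.215, edgeR adjusted p = 0.00282) and 2.43-fold in MRC+L cells (log2 1.28 ± 0.216, adjusted p = 0.000998). Over all genes, 17.8% and 21.8% were called higher in these comparisons. Hspa12b, a distant relative, fell by 1.25 on the log2 scale in MRC+L cells (edgeR adjusted p = 0.0123), but missed the threshold without MRC+L replicate 1 or 3 (adjusted p up to 0.0509). It was among 2 of the 7 relatives called lower there, beside 24.5% of all genes. Hspa1l, the third gene of the Hspa1 cluster, had 3 to 18 reads per library and passed no test (edgeR adjusted p = 0.745, 0.577 and 0.894).

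Of 14 genes of HSP90 and its cochaperones, 4 were called higher and 1 lower in MRC, beside 17.8% and 19.8% of all genes. In MRC+L cells 4 were called higher and 3 lower, close to the shares over all genes (21.8% and 24.5%). Cdc37, which brings kinases to HSP90, was 1.63-fold lower in MRC (log2 -0.70 ± 0.179, edgeR adjusted p = 0.0115), 1.89-fold lower in MRC+L (log2 -0.92 ± 0.180, adjusted p = 0.0023) and 1.16-fold lower in MRC+L than in MRC (log2 -0.21 ± 0.0602, adjusted p = 0.0415), the last lost in 7 of 13 alternatives. Unc45a, a myosin chaperone, was 1.44-fold higher in MRC (log2 0.53 ± 0.126, edgeR adjusted p = 0.00854), a call that ended when a trend with gene length was removed (adjusted p = 0.216). Chordc1 was 1.54-fold higher in MRC+L than in PBS (log2 0.62 ± 0.1247, adjusted p = 0.0026).

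Of 7 BAG and HSP70 cofactors Bag1 alone was called, and lower: 1.61-fold in MRC (log2 -0.69 ± 0.244, edgeR adjusted p = 0.049, lost in 9 of 15 alternatives) and 1.87-fold in MRC+L cells (log2 -0.91 ± 0.245, adjusted p = 0.0129). This count of 1 in 7 stands beside 19.8% and 24.5% of all genes called lower in these comparisons, and is no more than those shares. Among the 4 small heat shock genes tested, Hspb8, the partner of BAG3, was 1.75-fold higher in MRC (log2 0.81 ± 0.110, edgeR adjusted p = 0.00035) and 1.88-fold higher in MRC+L cells (log2 0.91 ± 0.110, adjusted p = 0.000129). Hspb6 fell by 0.72 on the log2 scale in MRC (edgeR adjusted p = 0.00307) and by 0.56 in MRC+L cells (adjusted p = 0.00948). Cryab, the alpha B crystallin gene, was 2.11-fold lower in MRC (log2 -1.08 ± 0.248, edgeR adjusted p = 0.00694) and 2.44-fold lower in MRC+L than in PBS (log2 -1.29 ± 0.251, adjusted p = 0.00228). Of these 4, 1 was called higher and 2 lower in each comparison with PBS. Over all genes the shares were 17.8% higher and 19.8% lower in MRC, and 21.8% and 24.5% in MRC+L cells. Hsf2, a second heat shock factor and one of 2 tested in its list, was 1.56-fold higher in MRC (log2 0.64 ± 0.130, edgeR adjusted p = 0.00344) and 1.43-fold higher in MRC+L cells (log2 0.51 ± 0.130, adjusted p = 0.00957), the latter lost when the length trend was removed (adjusted p = 0.0895).

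**Figure D4:**
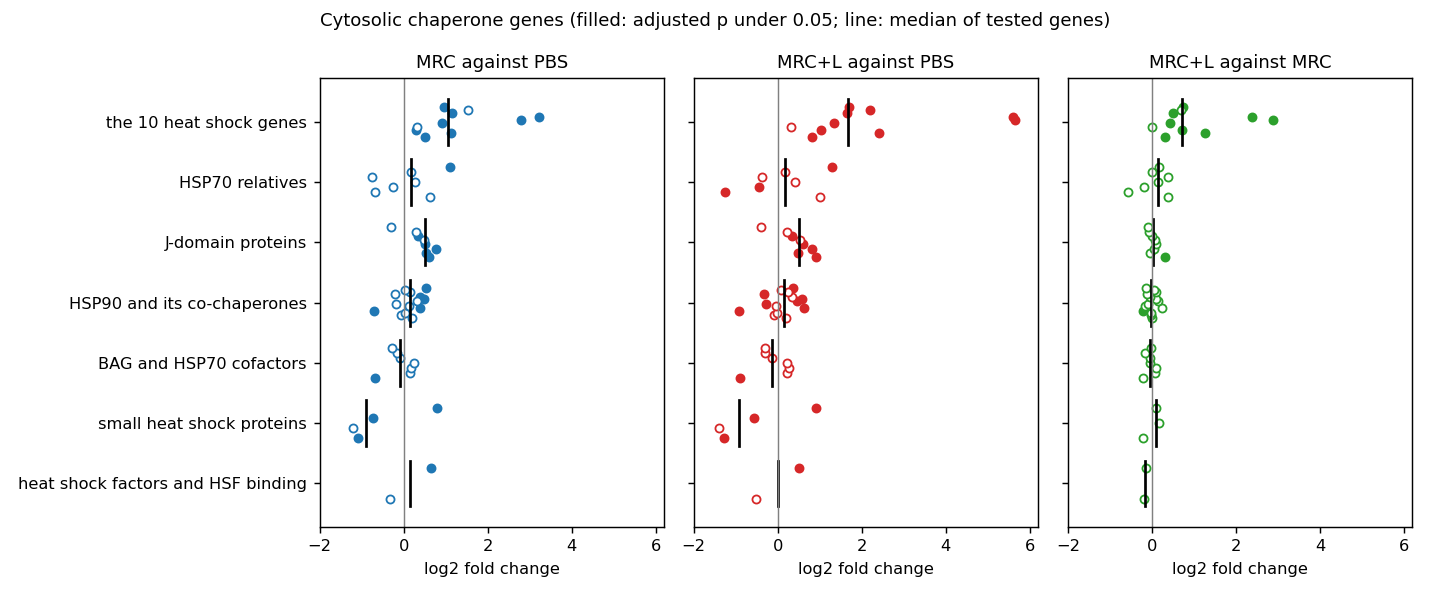
Log2 fold change (horizontal axis) of each tested gene of the 10 members and of the 6 lists of other chaperone genes (rows) in the 3 comparisons; filled points have an adjusted p under 0.05. The members reach farther right than the other lists, and for MRC+L against MRC only Dnaja1 and Cdc37 are filled outside the members.

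The genes whose pattern was most like the sum of Hspa1a and Hspa1b were sought by Pearson correlation of log2 CPM over the 9 libraries, among 9755 protein-coding genes outside the set with a mean of at least 5 CPM. Rnf225 (r = 0.976), Tcam1 (0.972), Alkbh1 (0.969) and Zscan12 (0.968) were among the 5 highest. Rnf225 and Tcam1 averaged 1.48 and 1.98 CPM in PBS and passed the limit of 5 CPM through the particle groups, so the limit itself favours genes that are high there. Of the heat shock genes, Hsp90aa1 reached r = 0.957, with 14 of the 9755 genes above it. Hspa8 (0.949), Bag3 (0.949), Dnaja4 (0.946) and Hsph1 (0.946) followed, with 28, 30, 38 and 40 genes above them. Dnajb1 (0.911), Hspb1 (0.896) and Hsf1 (0.634) had 220, 379 and 2623 genes above them. These 9 points fall into 3 groups and share their libraries and depths, so the values describe the likeness of the group pattern only.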

How the data were processed

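RNA of 4T1 cells was sequenced from TruSeq libraries, per the labels' protocols. The deposited tables hold raw read counts per gene, which the authors made with featureCounts 2.0.1, per the file headers, on GRCm39 with the Ensembl 104 annotation; no strand option appears there, and the aligner is not given in the sources used here. Ensembl IDs were matched to symbols in a gene name table (52083 of 55416 IDs, 94.0%).

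CPM of each gene are counts per 1000000 of a library's TMM-scaled total (unscaled for the limit of 3 counts), and RPKM divide them by the exon length in kilobases in the deposited tables. Counts were tested with edgeR 4.0.16 in R 4.3.3: filterByExpr (minimum count 10, minimum total 15), TMM scaling and the quasi-likelihood test, with Benjamini-Hochberg adjustment over all genes and a threshold of 0.05. Comparisons with PBS were fitted on all 9 libraries (13439 genes), and MRC+L against MRC on its 6 (12955 genes). Alternatives were DESeq2 1.42.0, its kind of size factors (RLE), no count filter, a replicate block, removal of a trend with gene length, the other choice of libraries, and each library left out in turn. No pair of libraries within a group agreed within sampling noise (chi-square per degree of freedom 3.63 to 142). The edgeR fit was also run on simulated counts with known changes, to check fold estimates and the calling of the largest changes. No limit was set there on false calls, so that run does not test the p-values.

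The 10 genes and the other lists were chosen with earlier results of these data known. Named are all 10 genes, the 2 called genes with the smallest adjusted p of each other list and comparison, and the 5 genes most like the Hspa1a and Hspa1b sum, of which 1 is not reported here. Gene coordinates are those of the deposited tables; promoter sequences are from RefSeq (GRCm38.p6) and were not converted.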

Additional observations from a re-analysis of the deposited data

How the results depend on the processing

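In the comparisons with PBS, Hspa1a, Hspa1b, their sum, Hspa8, Hsph1, Dnaja4, Bag3 and Hsp90aa1 kept direction and call in all 15 alternatives; over the left-out libraries the sum ranged from log2 2.78 to 3.56 for MRC and from 5.17 to 5.95 for MRC+L. Genes called ranged from 3562 (without MRC replicate 1) to 6962 (without PBS replicate 2) for MRC against PBS, with 7 to 10 of the 10 genes called, and from 4702 to 7659 for MRC+L against PBS, with 9 to 10. For MRC+L against MRC, the fit with all 9 libraries called 0 genes and 0 of the 10, and the sum was log2 2.39 (adjusted p = 0.463). DESeq2 with all 9 libraries called 22 genes and 5 of the 10, and DESeq2 on the 6 libraries 744 genes and 8 of the 10. Over the left-out libraries 137 to 1015 genes were called, with 7 to 8 of the 10, and the sum ranged from log2 2.19 to 2.53. Hsf1 changed sign there: it ranged from log2 -0.10 to 0.093, with 0.093 without MRC replicate 2 and 0.057 without MRC+L replicate 2. The other chaperone genes called higher in MRC against PBS ranged from 8 without MRC replicate 1 to 20 without PBS replicate 2.

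The labels number the replicates, but libraries with the same number did not deviate together (correlations from -0.185 to 0.0385). No pairing by number was therefore seen, though with 3 libraries per group such correlations cannot exclude one. With a replicate block, 4283, 5490 and 720 genes were called in the 3 comparisons, with 7, 9 and 8 of the 10 genes; Dnajb1 lost its call for MRC against PBS (adjusted p = 0.0848).

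The depth limits Hspa1a and Hspb1 in PBS cells, where their counts were 1 to 15 reads. The spread of the PBS group, widened by replicate 2, limits every comparison with it.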
